A study of Mus musculus with 20 samples.

Results

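The fat genes Adipoq, Plin1, Cidec, Cidea, Car3, Fabp4, Ucp1, Lep, Cfd and Cyp2e1 were followed through 10 mouse hearts. These are 10 of the 11856 protein-coding genes in the expression table, and they were picked by name from earlier results of these same hearts, for rising and falling together and, in the case of Cfd and Cyp2e1, for a difference between the genotypes. Levels in the hearts, differences between db/db and db/+ and likeness to each other are therefore given for these 10 genes as descriptions, without a test. All 10 had a mean of at least 1 FPKM (fragments scaled to the length of the transcript and the size of the library), the minimum set for testing other genes, and Lep reached it through its db/db hearts alone.

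The study set out to map N6-methyladenosine (m6A), a methyl mark on messenger RNA, in diabetic and healthy hearts. Hearts of 5 db/db and 5 db/+ mice of strain C57BL/6 were sequenced as input RNA and after immunoprecipitation of m6A, 20 libraries in all. Mice that are db/db lack a working long form of the leptin receptor and become obese and diabetic, whereas db/+ mice carry 1 mutated copy and serve as their lean controls. The genotype label of the db/+ hearts reads wild type, and the sample titles, which name db/+, were followed. Age, sex and treatment of the mice were not used here, and nothing in the labels says how much of the fat around the heart was removed before freezing.

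Fat cells store triglyceride in lipid droplets and release hormones into the blood. White fat holds 1 large droplet per cell and brown fat many small ones, beside mitochondria that burn fat for heat. The mouse heart carries a little fat on its surface and more around the great vessels and in the pericardium, so a whole-heart sample can hold a varying amount of it. Leptin, one of the fat hormones, is the ligand of the receptor whose working long form db/db mice lack.

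The samples carried the genes of heart muscle at high level. All 10 cardiomyocyte markers, among them Myh6, Tnnt2 and Ttn, were in the table, with a summed level of 10160 to 12620 FPKM in db/+ hearts and 9081 to 10020 FPKM in db/db hearts, and 3 of the 10, Mybpc3, Myl2 and Myl3, fell in db/db at a limma adjusted p under 0.05, where 1.72% of all genes tested fell. With the library medians set equal 0 of the 10 fell, and 2 without the 2 hearts described next. The FPKM of a library summed to 307868.8 to 340468.3. Sequencing depth is unknown, since the deposited values keep no trace of whole reads. Mitochondrial transcripts took 33.5% of the FPKM of db/+ heart 5 and 38.7% to 44.7% elsewhere. Db/+ heart 5 and db/db heart 4 stood apart by the airway genes Scgb1a1 and Bpifa1, at 16.9 and 16.5 FPKM in the former and 21.7 and 12.9 FPKM in the latter, against at most 1.12 FPKM in any other heart. Both were also among the hearts with the highest fat gene levels, so the genotype differences of the 10 genes are given below with and without them.

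RefSeq promoters of 5 of the genes are printed here, because Adipoq and Plin1 moved together over the hearts and Lep, Cfd and Cyp2e1 did not keep to them. Each runs from 250 bases before to 50 bases after the RefSeq start on build GRCm38.p6, read along the gene's own strand. Adipoq lies at chr16:23146286-23146585 on the plus strand and Plin1 at chr7:79732727-79733026 on the minus strand. Lep lies at chr6:29059971-29060270, Cfd at chr10:79890603-79890902 and Cyp2e1 at chr7:140763569-140763868, all 3 on the plus strand. Capitals mark matches, on either strand, to TTGCNNAA (the letters bound by C/EBP factors), AGGTCA (the half-site of nuclear receptors), TATAAA (the TATA box) and CCAAT, which shows as ATTGG where it lies on the other strand.
Adipoq: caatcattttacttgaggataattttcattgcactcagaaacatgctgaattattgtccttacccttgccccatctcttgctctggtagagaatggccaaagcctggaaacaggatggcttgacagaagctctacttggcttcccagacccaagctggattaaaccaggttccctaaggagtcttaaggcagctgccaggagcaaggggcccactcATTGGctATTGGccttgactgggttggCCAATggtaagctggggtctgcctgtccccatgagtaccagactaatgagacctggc
Plin1: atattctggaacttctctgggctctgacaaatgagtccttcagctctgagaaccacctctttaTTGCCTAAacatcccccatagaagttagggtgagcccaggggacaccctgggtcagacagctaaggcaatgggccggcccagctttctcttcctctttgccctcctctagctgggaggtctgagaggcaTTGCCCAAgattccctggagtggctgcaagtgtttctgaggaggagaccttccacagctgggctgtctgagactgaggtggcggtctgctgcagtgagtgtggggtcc
Lep: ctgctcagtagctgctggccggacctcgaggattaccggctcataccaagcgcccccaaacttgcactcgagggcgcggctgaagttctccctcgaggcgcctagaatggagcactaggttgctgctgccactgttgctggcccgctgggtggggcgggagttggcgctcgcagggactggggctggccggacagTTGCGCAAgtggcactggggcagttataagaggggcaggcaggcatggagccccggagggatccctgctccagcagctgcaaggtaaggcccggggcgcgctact
Cfd: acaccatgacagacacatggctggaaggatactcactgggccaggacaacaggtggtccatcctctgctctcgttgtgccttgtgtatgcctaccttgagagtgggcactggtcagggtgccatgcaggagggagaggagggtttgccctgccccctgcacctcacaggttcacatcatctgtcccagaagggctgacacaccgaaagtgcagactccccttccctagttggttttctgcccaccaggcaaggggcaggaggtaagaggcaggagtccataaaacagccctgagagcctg
Cyp2e1: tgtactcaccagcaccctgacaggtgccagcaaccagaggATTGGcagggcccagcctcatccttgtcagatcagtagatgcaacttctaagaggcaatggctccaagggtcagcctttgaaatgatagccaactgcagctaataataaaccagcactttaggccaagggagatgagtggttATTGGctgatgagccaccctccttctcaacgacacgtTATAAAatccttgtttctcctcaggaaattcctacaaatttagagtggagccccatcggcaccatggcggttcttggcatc
TTGCNNAA was found at position -187 and at position -58 of Plin1 and, as a palindrome on both strands, at -55 of Lep, positions counting back from -1 beside the start. It occurs in 10.8% of all 32851 RefSeq promoters of the same length. Adipoq held CCAAT 3 times, at -34, -27 and -7, and Cyp2e1 held it at -210 and -68 beside a TATAAA at -31. CCAAT occurs in 37.4% of all promoters, TATAAA in 13.6% and AGGTCA in 16.3%. None of the 4 motifs was in the Cfd window, which says only that these letters are not in those bases. A promoter entry was found for 7 of the 10 genes. Ucp1 held 1 AGGTCA, at -14, and of the 2 Cidec entries 1 held a TTGCNNAA, at -198.

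The genes Adipoq, Cidec, Plin1, Car3 and Ucp1 rose and fell as a block from heart to heart. Adiponectin, the hormone encoded by Adipoq and made by fat cells, stood at 5.27, 2.42, 32.6, 14.1 and 29.6 FPKM in db/+ hearts 1 to 5 and at 3.77, 10.7, 1.92, 16.3 and 4.40 FPKM in db/db hearts 1 to 5. Db/+ hearts 3 and 5 were the highest, db/db hearts 2 and 4 and db/+ heart 4 lay in the middle, and the other 5 were low, with both genotypes among the low hearts. The range from lowest to highest heart was 17.0-fold, whereas the genotype means were 16.8 ± 13.8 FPKM (SD, n = 5) in db/+ and 7.41 ± 5.96 FPKM in db/db.

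Cidec, a protein that fuses lipid droplets into the single large one of white fat cells, was at 2.06, 1.31, 17.0, 6.04 and 22.6 FPKM in db/+ and at 2.102, 6.52, 1.14, 9.87 and 2.76 FPKM in db/db. Plin1, the perilipin that coats the droplets of fat cells and guards them from lipases, was at 0.540, 0.186, 4.77, 1.99 and 7.30 FPKM in db/+ and at 0.767, 2.31, 0.521, 3.60 and 1.33 FPKM in db/db. Both kept to the order of Adipoq with small exchanges, db/+ hearts 5 and 3 first and db/db hearts 4 and 2 next, and for both the genotypes overlapped. Car3, a carbonic anhydrase abundant in fat and in slow muscle, was at 13.1, 6.34, 83.1, 41.9 and 95.3 FPKM in db/+ and at 9.98, 16.9, 5.35, 31.9 and 9.29 FPKM in db/db. It too overlapped between the genotypes, although the 3 highest hearts were all db/+.

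The brown fat gene Ucp1, whose product uncouples mitochondria to make heat, went with the white fat genes. It was at 10.3, 0, 65.4, 8.90 and 103.4 FPKM in db/+ and at 6.20, 21.1, 1.87, 22.9 and 11.4 FPKM in db/db. Db/+ heart 2, where Ucp1 is listed at 0, was also the lowest for Plin1 and the second lowest for Adipoq.

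The 10 pairs among Adipoq, Plin1, Cidec, Car3 and Ucp1 had a Pearson r of 0.861 to 0.986 over the 10 hearts on log2(FPKM + 1). With each genotype's mean taken out, the same pairs had an r of 0.915 to 0.994. Over Adipoq, r was 0.981 for Cidec, 0.981 for Car3, 0.948 for Plin1 and 0.895 for Ucp1, with Spearman's rho between 0.891 and 0.964. Without db/+ hearts 3 and 5, the 2 farthest from the median of Adipoq, r was 0.785 to 0.973 for these 4 genes. Without the 2 hearts that carried airway genes, it was 0.852 to 0.984. The values share their libraries and the scaling of FPKM, which can add the same error to every gene of a heart, and the median r with Adipoq over all 10343 other genes tested was 0.07, with 19 genes (0.184%) above 0.9.

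**Figure D1:**
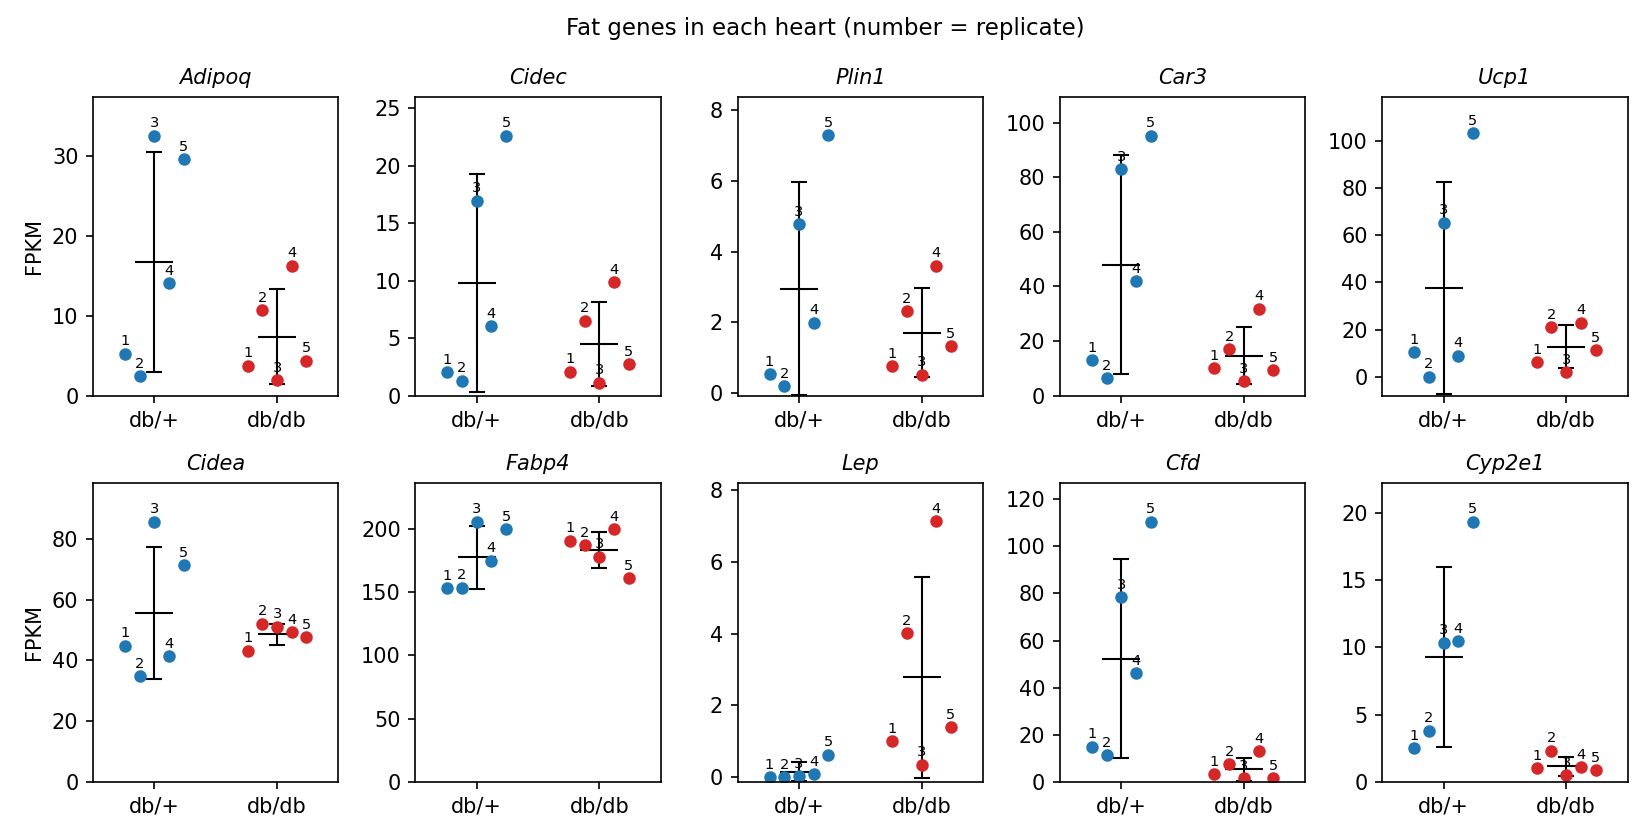
FPKM of the 10 fat genes in each heart, db/+ in blue and db/db in red, with the replicate number above each point and bars for the mean ± SD of 5 hearts. Adipoq, Cidec, Plin1, Car3 and Ucp1 are highest in db/+ hearts 3 and 5, Cyp2e1 is higher in every db/+ heart than in any db/db heart, and Lep is at most 0.629 FPKM in db/+.

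The block of fat genes cannot be read as a count of fat cells: in a bulk sample fewer cells of a type and less RNA per cell cannot be told apart. On log2(FPKM + 1), db/db minus db/+ was -0.89 (SE 0.66) for Adipoq, -0.67 (SE 0.66) for Cidec, -0.29 (SE 0.51) for Plin1 and -0.51 (SE 1.09) for Ucp1. Car3 differed by -1.28 (SE 0.69). Each of these 5 differences was smaller than the SD between the hearts of a genotype on the same scale, which ran from 0.97 for Plin1 to 2.08 for Ucp1 and was 1.31 for Car3, close to its difference. Without the 2 hearts with airway genes the differences were -0.91 (SE 0.67) for Adipoq, -0.56 (SE 0.61) for Cidec, -0.15 (SE 0.46) for Plin1, -0.10 (SE 1.11) for Ucp1 and -1.21 (SE 0.68) for Car3.

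Markers of other cell types were set beside the fat genes. The summed mesothelial markers, from the cell layer that covers the heart, ran from 9.24 to 54.7 FPKM in db/+ and from 25.2 to 62.3 FPKM in db/db, with r = 0.344 with Adipoq over the 10 hearts. None of the 8 lymphocyte and thymus markers listed was in the table. The summed endothelial markers ranged from 145.9 to 174.7 FPKM in db/+ and from 142.7 to 182.8 FPKM in db/db, r = 0.382. The smooth muscle and pericyte markers had r = -0.646, the red cell markers r = 0.164. Nerve markers, of which 4 of 8 were in the table, had r = 0.736 with Adipoq at sums of 2.72 to 6.24 FPKM. The part of these cell types in the fat gene levels was not tested.

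Cidea and Fabp4 had far higher floors. Cidea, a droplet protein of the same family as Cidec that is typical of brown fat, was at 44.9, 34.7, 85.7, 41.3 and 71.4 FPKM in db/+ and at 43.2, 52.1, 51.1, 49.3 and 47.7 FPKM in db/db. Its 2 highest hearts were db/+ hearts 3 and 5, as for Adipoq, and the other 8 lay within 34.7 to 52.1 FPKM. Its r with Adipoq was 0.733, and 0.265 without those 2 hearts, so that the likeness rested on them. Fabp4, a fatty acid carrier of fat cells that the capillary endothelium of the heart also makes, was at 153.0, 153.4, 205.5, 174.9 and 199.6 FPKM in db/+ and at 190.5, 187.1, 178.0, 199.4 and 161.2 FPKM in db/db. From lowest to highest heart it ranged 1.34-fold, against 17.0-fold for Adipoq, and its r with Adipoq was 0.702. Their db/db minus db/+ differences were -0.11 (SE 0.21) for Cidea and 0.06 (SE 0.095) for Fabp4 on the log2 scale, and -0.003 (SE 0.23) and 0.069 (SE 0.10) without the 2 hearts with airway genes.

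**Figure D2:**
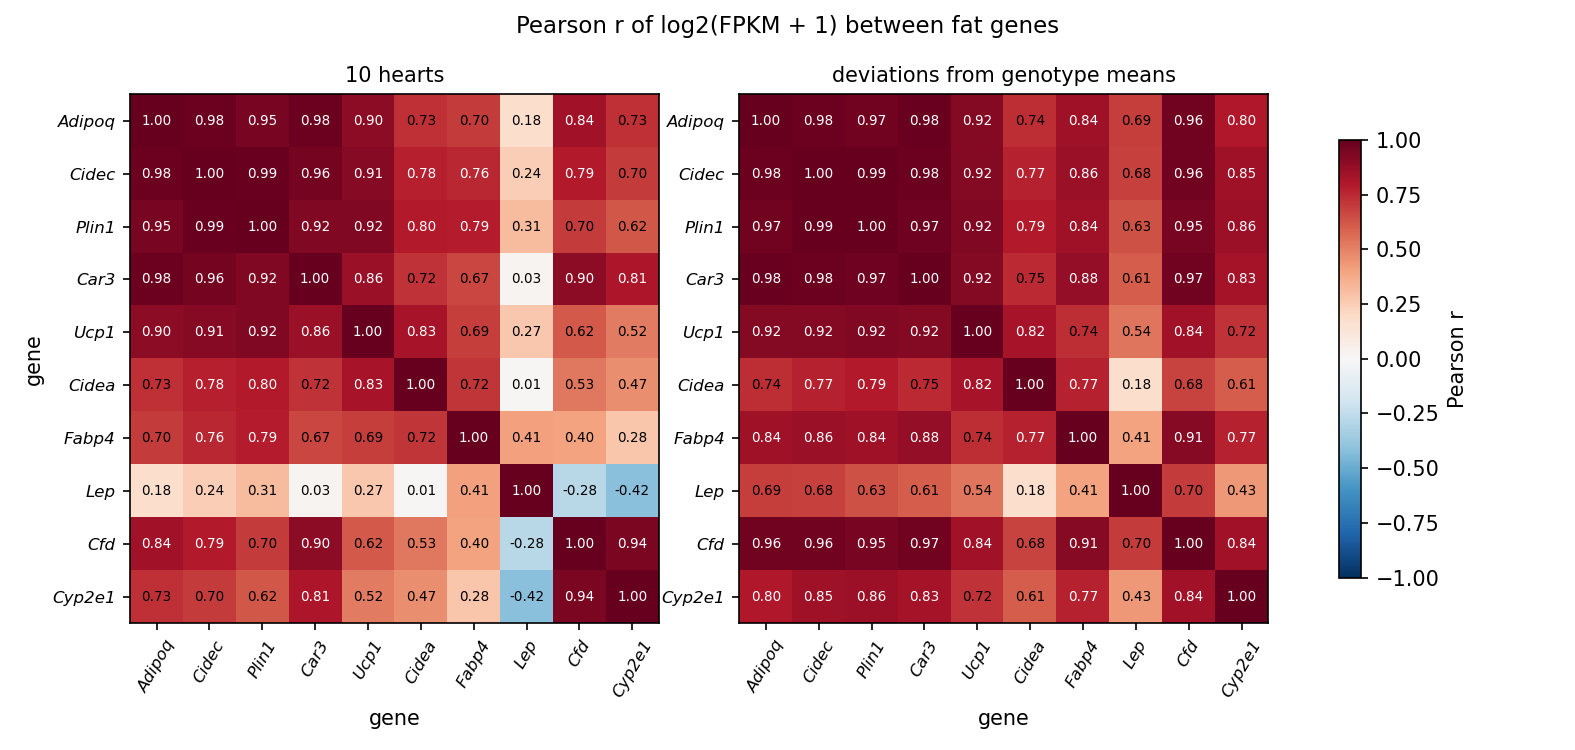
Pearson r of log2(FPKM + 1) between every pair of the 10 fat genes, over the 10 hearts on the left and over deviations from each genotype's mean on the right, with red for positive and blue for negative r. Adipoq, Cidec, Plin1, Car3 and Ucp1 form a block in both panels, and the r of Lep with Adipoq goes from 0.178 on the left to 0.689 on the right.

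Cfd left the block by genotype. Complement factor D, or adipsin, is a serine protease that fat cells secrete and that starts the alternative pathway of complement by cutting factor B. Its gene lies at chr10:79890853-79892655 on the plus strand. It was at 15, 11.3, 78.5, 46.2 and 110.4 FPKM in db/+ hearts 1 to 5 and at 3.33, 7.64, 1.68, 13.1 and 1.58 FPKM in db/db hearts 1 to 5. Db/+ hearts 5, 3 and 4 were the highest, and the genotypes overlapped only in that db/db heart 4 lay above db/+ heart 2. The means were 52.3 ± 42.3 FPKM in db/+ and 5.46 ± 4.91 in db/db (SD, n = 5), and the log2 difference was -2.89 (SE 0.66).

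Per unit of Adipoq the genotypes came apart. Cfd over Adipoq, a ratio of FPKM, was 2.85, 4.68, 2.41, 3.29 and 3.73 in db/+ and 0.885, 0.714, 0.874, 0.802 and 0.360 in db/db. The 2 ranges did not overlap, and the db/+ median was 4.10 times the db/db median. Within a genotype Cfd kept step with Adipoq: r was 0.839 over the 10 hearts and 0.963 over deviations from the genotype means. Over Plin1 and over Cidec the ratio did not overlap either, with a db/+ median 7.02 and 5.51 times that of db/db. Beside Adipoq as a covariate the log2 difference was -2.04 (SE 0.20), beside Plin1 -2.54 (SE 0.23) and beside Cidec -2.25 (SE 0.19). Muscle markers moved with the genotype as well, on FPKM as deposited. The 6 skeletal muscle markers in the table, of 9 listed, summed to 553.6 to 637.7 FPKM in db/+ and 419.1 to 502.1 FPKM in db/db. Myh4, Myh1 and Atp2a1 were not in the table, and only 3 of the 6 reached the minimum level for testing. Whether this sum comes from skeletal or from heart muscle was not tested. Of 3 tested, 1 was called lower, Ckm, where 1.72% of all genes tested fell. The sum had r = 0.678 with Cfd, 0.684 with Cyp2e1 and 0.22 with Adipoq. The cardiomyocyte sum, as deposited higher in every db/+ heart than in any db/db heart, had r = 0.663 with Cfd and 0.708 with Cyp2e1. With the library medians set equal, 0 of the 10 cardiomyocyte markers fell and Ckm was still called. The part of muscle RNA in the Cfd and Cyp2e1 differences was not tested.

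Cyp2e1, a cytochrome P450 of liver and fat that oxidizes ethanol, acetone and fatty acids, lies at chr7:140763739-140774987 on the plus strand. Its levels were 2.50, 3.81, 10.3, 10.4 and 19.3 FPKM in db/+ and 1.02, 2.33, 0.486, 1.08 and 0.887 FPKM in db/db. Every db/+ heart was above every db/db heart, by a narrow gap between db/+ heart 1 and db/db heart 2. It was the only one of the 10 genes whose FPKM did not overlap between the genotypes. Over all 10344 genes tested, 6.41% did not overlap and 4.18% did not overlap with db/db lower. The means were 9.28 ± 6.69 FPKM and 1.16 ± 0.69 FPKM, and the log2 difference was -2.03 (SE 0.42).

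Cyp2e1 followed Adipoq less closely than Cfd did, with r = 0.729 over the 10 hearts, 0.803 over deviations from genotype means, and 0.414 without db/+ hearts 3 and 5. In db/db heart 4, with the highest Adipoq of its genotype, Cyp2e1 was at 1.08 FPKM, close to the 1.02 FPKM of db/db heart 1. Cyp2e1 over Adipoq was 0.474, 1.58, 0.317, 0.743 and 0.652 in db/+ and 0.270, 0.218, 0.254, 0.067 and 0.202 in db/db. These ranges did not overlap, with a db/+ median 2.99 times that of db/db. Beside Adipoq, Plin1 and Cidec as covariates the log2 difference was -1.58 (SE 0.28), -1.83 (SE 0.23) and -1.67 (SE 0.24). Of 8 liver markers 3 were in the table, and Alb was above 1.5 FPKM only in db/+ heart 2, at 4.89 FPKM, and db/db heart 5, at 3.22 FPKM. Alb was listed at 0 in db/+ hearts 3, 4 and 5, the 3 hearts with the most Cyp2e1, and the summed liver markers had r = -0.286 with Cyp2e1. Db/+ heart 2, with the highest liver marker sum, 11.8 FPKM, also had the highest Cyp2e1 over Adipoq, 1.58. Db/db heart 5, with the next highest sum, 8.79 FPKM, had a ratio of 0.202. The part of liver RNA in the Cyp2e1 levels was not tested.

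Lep left the block in the other direction. Leptin signals the size of the fat stores to the brain. Its gene was listed at 0 in db/+ hearts 1 and 2, was at 0.035, 0.082 and 0.629 FPKM in db/+ hearts 3, 4 and 5, and was at 1.00, 4.02, 0.343, 7.14 and 1.40 FPKM in db/db hearts 1 to 5. Db/+ heart 5 lay above db/db heart 3, the only overlap. Over the 10 hearts its r with Adipoq was 0.178, over deviations from genotype means 0.689, and the 5 db/db hearts stood in the same order for Lep as for Adipoq. Lep over Adipoq was at most 0.021 in db/+ and 0.179 to 0.438 in db/db, without overlap. The log2(FPKM + 1) difference was 1.44 (SE 0.41), a scale that shrinks changes of a gene this low, and 1.81 (SE 0.33) beside Adipoq.

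**Figure D3:**
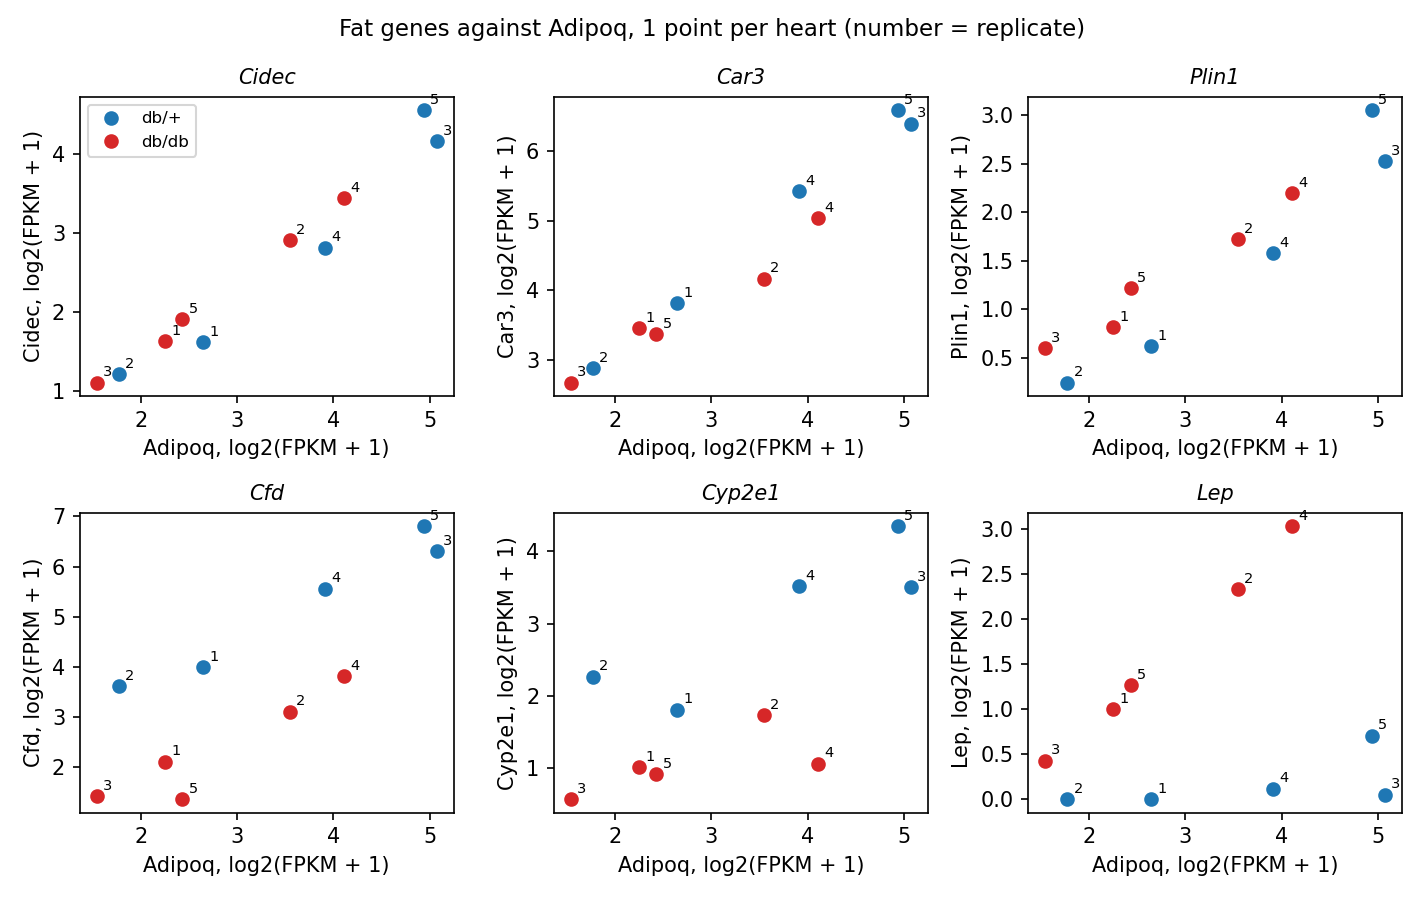
Levels of 6 fat genes against Adipoq, both as log2(FPKM + 1), with 1 point per heart, db/+ in blue, db/db in red and the replicate number beside each point. Cidec, Car3 and Plin1 follow Adipoq in both genotypes, Cfd and Cyp2e1 run lower in db/db at a like Adipoq level, and Lep runs higher. Car3 runs lower to a lesser extent (log2 difference -0.36, SE 0.14, beside Adipoq).

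How many genes left the block depended on the gene taken as its measure. Of the 9 genes set over Adipoq, Cfd, Cyp2e1 and Lep did not overlap between the genotypes, and Plin1, Cidec, Cidea, Car3, Fabp4 and Ucp1 did. Among all 10343 genes tested other than Adipoq, 0.0967% did not overlap, or 10 genes, 0.029% lower and 0.0677% higher in db/db. Those outside the fat genes named so far were Cyp1a1, another cytochrome P450, which was lower in db/db, and Hp, Scd1, Nnat, Tpsb2, Kcnk1 and Klk1b26, which were higher. Set over Plin1, Cidec and Car3 were also lower in db/db without overlap, where 0.0677% of all genes did not overlap and 0.058% were the lower ones. Set over Cidec, Plin1 was also higher in db/db, where 0.087% of all genes did not overlap and 0.058% were the higher ones. On plain FPKM 6.41% of all genes did not overlap. A gene that does not follow the divisor takes on its spread between hearts, so such a ratio tends to overlap. The shares over Adipoq, Plin1 and Cidec are therefore no chance rate for genes picked for moving together. Without the 2 hearts with airway genes, Cfd and Cyp2e1 over Adipoq were still lower and Lep still higher without overlap, and Plin1 and Cidec over Adipoq became higher in db/db without overlap. Groups of fewer hearts overlap less readily, and the share of all genes was not counted for the 8 hearts left. In those 8 hearts the log2 difference was -2.87 (SE 0.60) for Cfd and -1.72 (SE 0.40) for Cyp2e1, and Lep was below the minimum level. Cfd and Cyp2e1 were lower and Lep higher in db/db whichever of Adipoq, Plin1 and Cidec was the measure. In the fits with a covariate over all 10 hearts, Car3 differed by -0.36 (SE 0.14) beside Adipoq, -0.90 (SE 0.17) beside Plin1 and -0.59 (SE 0.17) beside Cidec. Plin1 differed by 0.37 (SE 0.16) beside Adipoq and 0.23 (SE 0.085) beside Cidec. Cidec differed by 0.20 (SE 0.15) beside Adipoq and -0.30 (SE 0.094) beside Plin1.

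The genes most like Adipoq over the 10 hearts, among those with a name, were Cidec, Car3, Pck1, Gng11, Prkar2b and Adig, with r from 0.948 to 0.981. Pck1 makes glycerol for triglyceride in fat cells, and it ranged from 1.23 to 44.9 FPKM over the hearts. Gng11, a G protein subunit, ranged only from 32.4 to 41.4 FPKM. Among those most like Cfd were Mtmr4, Cyp2e1, Nat9, Retn and Tie1, with r from 0.935 to 0.943. Most like Cyp2e1 were Nes, Mtmr4, Lonrf1, Aplnr, Ubqln2 and Cfd, with r from 0.942 to 0.969. Both of these last lists contain genes whose spread is a small part of that of Cfd or Cyp2e1 (Mtmr4 from 2.11 to 3.60 FPKM). Such an r also holds the difference between the genotypes. Over deviations from genotype means, the r of Mtmr4 was 0.837 with Cfd and 0.893 with Cyp2e1. Retn, or resistin, a hormone of mouse fat cells, went from 0.460 to 4.77 FPKM in db/+ and from 0.086 to 1.09 FPKM in db/db, with a log2 difference of -1.05 (SE 0.39, limma adjusted p = 0.171).

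Further genes of fat cells, 94 in 5 lists written from general knowledge, were tested in the same fit as the whole table. Of these, 77 were in the table and 70 had a mean of at least 1 FPKM. In db/db, 3 of the 70 rose and 2 fell at a limma adjusted p under 0.05, 7.14% of the list, where 311 of all 10344 genes (3.01%) were called, 133 higher (1.29%) and 178 lower (1.72%). The median log2 difference was -0.031 for the list and -0.029 for all genes tested. No gene of 12 for white adipocyte identity and none of 12 adipogenic transcription factors passed. Pparg, the master regulator of fat cells, differed by 0.18 (SE 0.12, limma adjusted p = 0.431) and Cebpa by -0.32 (SE 0.34, limma adjusted p = 0.648).

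The 5 genes called varied little among the hearts of a genotype. Heart muscle is known to make Plin5 and Cd36 itself, and the part of each cell type in the 5 differences was not tested. Plin5, the perilipin of muscle and other fat-burning tissue, rose from 40.8 to 50.9 FPKM in db/+ to 65.3 to 82.5 in db/db (log2 difference 0.69, SE 0.079, limma adjusted p = 0.00184). Me1, malic enzyme, which makes NADPH for fatty acid synthesis, rose from 30.4 to 36.8 FPKM to 42.4 to 43.3 FPKM (0.35, SE 0.057, limma adjusted p = 0.00941). Cd36, which takes fatty acids into the cell, rose from 306.9 to 406.4 FPKM to 458.3 to 558.1 FPKM (0.45, SE 0.082, limma adjusted p = 0.0165). None of the 3 overlapped between the genotypes. Their r with Adipoq was -0.459, -0.311 and -0.594 over the 10 hearts. Over deviations from genotype means it was -0.374, 0.124 and -0.609. Dgat2, which makes triglyceride, fell by 0.39 (SE 0.080, limma adjusted p = 0.027), and Cox7a1, a cytochrome oxidase subunit of muscle and brown fat, fell by 0.27 (SE 0.055, limma adjusted p = 0.027). The r of these 2 with Adipoq was 0.605 and 0.56 over the 10 hearts and 0.608 and 0.559 over deviations from genotype means. Without db/+ hearts 3 and 5 it was 0.259 and 0.233. Beside Adipoq as a covariate they differed by -0.335 (SE 0.077) and -0.24 (SE 0.058). Neither passed there, at limma adjusted p of 0.0641 and 0.0737. Neither fall passed without db/+ heart 3 or 4, without db/db heart 1, 2 or 3, without both hearts with airway genes, or with the library medians set equal. In those fits 3 genes of the list were called, except without db/db heart 3, where Cd36 failed too and 2 were called. Dgat2 also failed without db/+ heart 1, and Cox7a1 without the mitochondrial genes.

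Among the family relatives of these genes in the table, Plin5 and Fabp3 rose and the others did not pass. Among the perilipins, Plin2, Plin3 and Plin4 had log2 differences of 0.04, -0.27 and 0.06 with limma adjusted p of 0.895, 0.149 and 0.829. Fabp3, the fatty acid carrier of heart muscle, rose from a mean of 2973 FPKM in db/+ to 3695 in db/db (log2 difference 0.31, SE 0.054, limma adjusted p = 0.0132), and Fabp5 differed by -0.12 (limma adjusted p = 0.541). Of the carbonic anhydrases Car2, Car4, Car8, Car11, Car13 and Car14, none passed, at log2 differences of -0.18 to 0.15. Cideb differed by -0.05 (limma adjusted p = 0.764). Ucp2 differed by 0.54 (SE 0.14, limma adjusted p = 0.0638) and Ucp3, the muscle form, by 0.11 (SE 0.22, limma adjusted p = 0.822). Car7 and Fabp1 were below the minimum level.

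With the Adipoq level of each heart in the fit, the calls among the 70 genes changed. Adipoq as a covariate left Plin5, Me1 and Cd36 among the genes called, and added Scd1, Hp, Nnat, Tusc5 (also known as Trarg1) and Sncg, all higher in db/db and none lower. That is 11.4% of the 70, where 145 of all 10343 genes (1.4%) were called, 0.754% higher. Scd1, the desaturase that makes monounsaturated fatty acids, was at 4.13, 4.32, 29.5, 13.2 and 19.8 FPKM in db/+ and at 11.6, 20.2, 5.86, 29.8 and 13.3 FPKM in db/db. Its FPKM overlapped widely, and Scd1 over Adipoq did not, at 0.667 to 1.79 in db/+ and 1.83 to 3.07 in db/db. The log2 difference was 0.34 (SE 0.53) without Adipoq and 1.03 (SE 0.15, limma adjusted p = 0.0113) with it.

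Hp, or haptoglobin, which binds free haemoglobin and is made by liver and fat, went from 0.13 (SE 0.61) to 0.93 (SE 0.17, limma adjusted p = 0.0282). Nnat, or neuronatin, went from 0.55 (SE 0.29) to 0.89 (SE 0.15, limma adjusted p = 0.0196). Tusc5, which serves glucose transport in fat cells, reached 0.52 (SE 0.10, limma adjusted p = 0.0366) and Sncg 0.45 (SE 0.094, limma adjusted p = 0.0476). With 1 heart left out at a time, Plin5 and Scd1 were called in 10 of 10 fits, Nnat in 8, Hp in 5, Cd36, Me1 and Tusc5 in 3 each and Sncg in 1. Nnat was lost without db/+ heart 1 or db/db heart 4, and Hp without db/+ heart 1 or 4 or db/db heart 1, 2 or 4. Both Adipoq and these genes are measured in the same libraries, and whether Adipoq itself differs per fat cell between the genotypes, which would enter every such value, was not tested.

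The choice of covariate changed which other genes passed. With Plin1 in place of Adipoq, 4 of the 70 rose (Plin5, Cd36, Me1 and Nnat) and 4 fell (Retn, Dgat2, Cox7a1 and Pck1). With Cidec, 7 rose (Plin5, Hp, Nnat, Cd36, Me1, Tusc5 and Scd1) and Dgat2 fell. Each is 11.4% of the 70. Of all 10343 genes, 250 (2.42%) were called beside Plin1 and 207 (2%) beside Cidec. Plin5, Me1, Cd36 and Nnat were called higher beside each of the 3 genes.

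**Figure D4:**
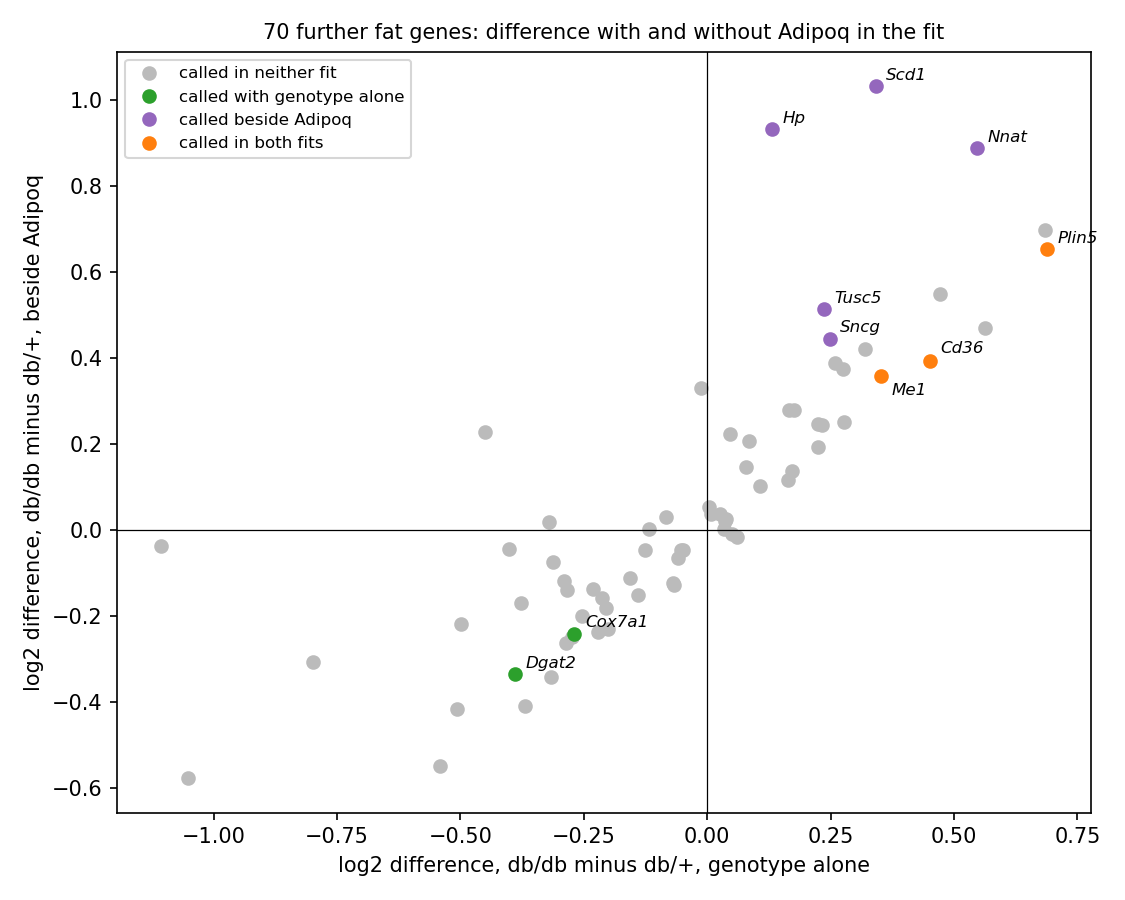
Log2 difference, db/db minus db/+, of the 70 further fat genes with genotype alone (horizontal axis) and with Adipoq as a covariate (vertical axis), 1 point per gene, coloured by the fit in which it was called at a limma adjusted p under 0.05. Scd1, Hp and Nnat lie well above 0 on the vertical axis and nearer to it on the horizontal one, while Plin5, Me1 and Cd36 are called in both fits.

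A test of the slope on Adipoq beside genotype called 20 of 10343 genes (0.193%), 19 rising with Adipoq (0.184%) and 1, Traf3, falling. Of the 20, 5 were from the block and its followers (Car3, Cidec, Plin1, Cfd and Ucp1), which the choice of genes fixes, and 8 were from the 70 further fat genes. These were Pck1, Hp, Scd1, Adig, Tusc5, Retn, Thrsp and Nnat. Pck1 had a slope of 1.20 log2 units per log2 unit of Adipoq (SE 0.092, limma adjusted p = 0.00022). The slope of Hp was 0.90 (SE 0.072, limma adjusted p = 0.00024) and that of Scd1 was 0.78 (SE 0.064, limma adjusted p = 0.000265). Adig, or adipogenin, had a slope of 0.76 (SE 0.079, limma adjusted p = 0.00137). Those 4 were called in 10 of 10 fits that left out 1 heart. Tusc5 was called in 8 of the 10, Retn in 4, and Thrsp and Nnat in 2. The other 7 genes called were Prkar2b, Retnla, Cib2, Arxes2, Cdo1, Traf3 and Gpd2. Prkar2b, a regulatory subunit of protein kinase A abundant in fat, had a slope of 0.78 (SE 0.066, limma adjusted p = 0.000283) over levels of 0.608 to 13.5 FPKM.

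Further genes of fat synthesis stood close to Adipoq in level without passing that test: Fasn, fatty acid synthase, had r = 0.872, Acly r = 0.876 and Acaca r = 0.914. In all, 17 of the 70 (24.3%) had r above 0.7 with Adipoq, against 2.12% of all genes tested. Genes of storage and breakdown were among both the like and the unlike: Gpd1 had r = 0.752, Agpat2 r = 0.741 and Pnpla2 r = 0.727, whereas Lpl had r = 0.134, Plin2 -0.11 and Acsl1 -0.175. These examples were chosen after their values were seen.

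Among the other complement genes, Vsig4 and Masp1 rose in db/db and factor B and C3 overlapped. Of 29 complement genes listed, 23 were tested, and 2 rose in db/db (8.70%, against 1.29% of all genes called higher) and none fell. Vsig4, a complement receptor of resident macrophages, rose from 2.19 to 4.18 FPKM in db/+ to 6.55 to 13.1 in db/db (log2 difference 1.25, SE 0.17, limma adjusted p = 0.00491), and by 1.42 (SE 0.17, limma adjusted p = 0.00481) without the 2 hearts with airway genes. Masp1, a protease of the lectin pathway, was higher by 0.45 (SE 0.11, limma adjusted p = 0.0494), a call that was lost without any one of 9 of the 10 hearts, the exception being db/+ heart 2. C7, of the membrane attack complex, differed by -0.92 (SE 0.23, limma adjusted p = 0.0587). Factor B, the substrate of factor D, had 1.05, 2.92, 2.17, 2.98 and 5.75 FPKM in db/+ and 2.52, 4.11, 1.86, 3.69 and 2.18 FPKM in db/db, and C3 ran from 37.0 to 138.0 FPKM in db/+ and from 59.96 to 102.9 FPKM in db/db. The ranges of both genes crossed. The summed macrophage markers, 7 of 8 in the table, ranged from 210.2 to 450.6 FPKM in db/+ and from 211.4 to 298.6 FPKM in db/db.

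The neighbours of Cfd and Cyp2e1 on the chromosome were read as well. Ptbp1, which ends 26082 bp before Cfd, and Med16, which starts 2053 bp after it, had log2 differences of 0.22 (limma adjusted p = 0.401) and -0.07 (limma adjusted p = 0.747). Mtg1, 612953 bp before Cyp2e1, differed by -0.23 (limma adjusted p = 0.159). Scgb1c1, 70560 bp after Cyp2e1, fell by 2.35 (SE 0.20, limma adjusted p = 0.000348), from 15.1 to 22.0 FPKM in db/+ to 1.08 to 3.83 in db/db, and unlike Cyp2e1 it varied little among the db/+ hearts.

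The m6A peak lists, 1 per heart, held 8468 to 20048 distinct peaks, and every one of the 10 fat genes had a peak in at least 1 heart. Each peak carries a fold over input and a p-value from the authors' peak caller, which are the authors' own and are given without comparison between hearts. A peak on Fabp4 was listed in 10 of 10 hearts, one on Cidea in 9 and one on Car3 in 8. The Fabp4 peaks had folds of 5.03 to 32.2, and in each list at least 72.9% of peaks had a lower fold. All 10 of them touched the 3′ untranslated part, and the 9 peaks on Cidea and the 9 on Car3 lay in it alone.

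Adipoq and Plin1 had peaks in the same 5 hearts, db/+ hearts 3, 4 and 5 and db/db hearts 2 and 4, which were the 5 with the highest levels of both genes. Adipoq was at 10.7 FPKM or more where a peak was listed and at 5.27 FPKM or less where none was. For Plin1 the corresponding levels were 1.99 and 1.33 FPKM. Of all 430 genes with a peak in 5 hearts, 1.63% had their peaks in the 5 hearts with the highest level. The Plin1 peaks lay between positions 79720218 and 79721177 of chromosome 7, in the 3′ untranslated part, with folds of 15.2 to 46.3. In each of these lists at least 97.9% of peaks had a lower fold. Adipoq peaks had folds of 1.53 to 3.07, above 1.93% to 36.6% of the peaks in their lists.

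Cidec and Ucp1 had peaks in db/+ heart 5 and db/db heart 4 only, the 2 hearts with airway genes, and the list of db/+ heart 5 was the longest of all. Lep had peaks in db/db hearts 4 and 5, with folds of 12.7 and 14, both in the 3′ untranslated part. Cfd had a single peak, in db/+ heart 4, at chr10:79892536-79892655 with a fold of 2.44, and none in db/+ hearts 3 and 5, where its level was higher. Cyp2e1 had 2 overlapping peaks in db/+ heart 5, its highest heart, between positions 140774745 and 140774957 of chromosome 7. Adipoq, Plin1 and Cyp2e1 were thus the 3 genes of the 9 without a peak in every heart whose peaks lay just in their highest hearts, which was so for 5.04% of all 5815 genes with a peak in 1 to 9 hearts. Whether peaks were listed more often in one genotype was tested with Fisher's exact test, two-sided. For the 10 genes the adjusted p was 1 in every case, and over all 8070 genes with a peak 0 were called (0%). At an unadjusted p under 0.05 there were 54, and the smallest p that 5 hearts against 5 can give is 0.00794, which adjustment over 8070 genes leaves above the threshold unless many genes reach it. The number of peaks listed and the level of each gene also differed between hearts, and their part in where peaks were listed was not tested.

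**Figure D5:**
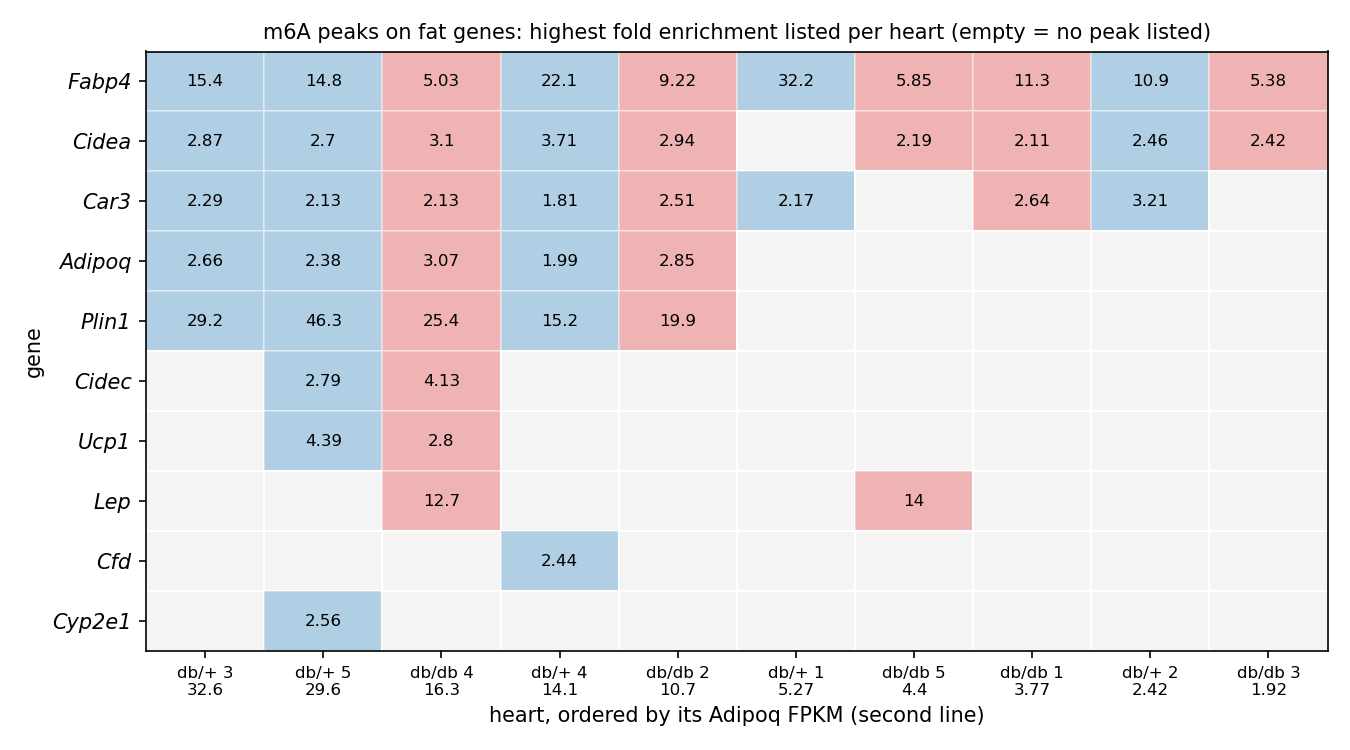
The m6A peaks on the 10 fat genes, 1 column per heart in falling order of Adipoq FPKM, with the highest fold listed in each filled cell and blue for db/+, red for db/db. Adipoq and Plin1 have peaks in the 5 hearts on the left, and Fabp4 has one in all 10.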

How the data were processed

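Expression values are FPKM, deposited by the authors for 10 input libraries, and the 10 peak lists, per the file headers, hold a fold enrichment and a p-value per peak, called per animal. HISAT2 2.1.0, Trimmomatic 0.32, FastQC 0.11.7 and build mm9 are named in the submitters' processing notes, without roles. What computed FPKM and peaks is not given in the sources used here. Gene positions are as deposited: 89.9% of 11500 matched genes lay within 50 bp of a GRCm38 start or end. The table was filtered on low values before deposit, with a lowest larger genotype mean of 0.5 FPKM. Each heart has a title of its own, and the labels do not say whether the mice were of separate litters or batches.

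Limma 3.58.1 in R 4.3.3 (eBayes with trend) was fitted to log2(FPKM + 1) of the 10344 genes whose mean was 1 FPKM or more, db/db minus db/+, with Benjamini-Hochberg adjustment, called under 0.05, and was tested on simulated data. Positions in the table count from 1, and 1 was added to the peak starts. Repeated peak lines (4959 of 146953) were removed. The 10 genes, the lists and the alternatives were chosen with earlier results of these data known, and the slope test, the covariates Plin1 and Cidec, the fits without the 2 hearts with airway genes and the muscle marker counts under other scalings were added after the data were seen. Named genes were the 10 genes, the called members of each list with up to 4 more of the smallest p, the 6 genes most like Adipoq, Cfd and Cyp2e1 (1 of them is not reported here), the gene families, the neighbours of Cfd and Cyp2e1 and, outside that rule and after their values were seen, the genes called in the fits with a covariate, on the slope, or not overlapping over Adipoq, and Fasn, Acly, Acaca, Gpd1, Agpat2, Pnpla2, Lpl, Plin2, Acsl1, Cfb and C3. Alternatives covered pseudocount, filter, scaling, hearts left out, a replicate block and covariates.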

Additional observations from a re-analysis of the deposited data

Results flagged for a closer look

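Lep in db/+ heart 5, at 0.629 FPKM, stood apart from the other 4 db/+ hearts, which lay between 0 and 0.082 FPKM. Lep over Adipoq in the same heart was 0.0213, with the others at 0 to 0.00583. A heart was singled out where its gap to the nearest heart exceeded 0.71 of the range of its 5. For normally distributed values chance alone does so in about 1 group of 20. Of 38 groups looked at, 2 were singled out, which is near that rate, and both are these Lep values. Db/+ heart 5 is also 1 of the 2 hearts with airway genes and had the lowest share of mitochondrial transcripts, and the part of either in its Lep level was not tested.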

How the results depend on the processing

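The Cfd difference ranged from -3.30 to -2.51 and the Cyp2e1 difference from -2.35 to -1.71 with 1 heart left out, and neither moved by more than the spread between hearts in any of 20 alternatives. Cyp2e1 was at -2.70 with a pseudocount of 0.1 and at -1.58, -1.83 and -1.67 beside Adipoq, Plin1 and Cidec. The Lep difference became 3.38 (SE 0.76) with a pseudocount of 0.1. The median r of the other 9 genes with Adipoq was 0.839, between 0.787 and 0.901 with 1 heart left out, and 0.645 without db/+ hearts 3 and 5. Fisher's test of peaks by genotype called 0 genes in every alternative, with 36 to 131 at an unadjusted p under 0.05, but with so few hearts a call was hardly possible, so this says nothing about stability.

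Calls over the whole table moved more. With 1 heart left out, 112 to 315 genes were called in place of 311, without the 2 hearts with airway genes 197, beside Adipoq 145 and beside Cidec 207. Other scalings shifted the split: 42.8% of calls were higher in db/db as deposited, 59.6% with library medians set equal, 57.6% without mitochondrial genes and 56% after quantile normalization. Of the 70 further fat genes, 2 to 7 were called in place of 5 with 1 heart left out, 3 with medians set equal, 3 without the 2 hearts with airway genes, and 8 beside each of Adipoq, Plin1 and Cidec. With the replicate number as a block, 72 genes and 1 of the 70 (Plin5) were called. Hearts of 1 number did not vary together (r of -0.105 to 0.028, and 0 of 5 db/+ hearts were most like the db/db heart of their number). Whether hearts of 1 number shared a litter or a batch cannot be told from these values. Depth is unknown, which leaves the error of low values such as Lep and Plin1 to the spread between hearts alone. The cause of these changes was not tested.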
